A study of Mus musculus with 5 samples.

Results

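The strongest regions of NKX2-1 binding in the postnatal mouse lung were chosen by the height of the chromatin immunoprecipitation (ChIP-seq) signal. Peaks of 4 antibodies were merged where they overlapped by at least 1 bp, and a region was kept when every antibody had a peak in it with a pileup of at least 70, the pileup being the number of extended sequence tags stacked at the summit. Of 68919 merged regions, 31606 held a peak of all 4 antibodies, and 2397 of these (3.48% of all merged regions) passed the threshold. The other 29209 four-antibody regions serve below as the set to compare with. Chromatin came from formalin-fixed whole lung of wild-type mice aged 10 postnatal days. Each of the antibodies against NKX2-1 (Abcam133737, Abcam76013, Millipore07-601 and Abcam133638) has 1 library of 43031331 to 46547989 tags after removal of duplicates, and 1 input library of 10653749 tags served them all. The protocol in the labels pools the chromatin before immunoprecipitation, so the libraries may share 1 preparation and the antibodies repeat the pulldown, not the animal. No value below has a replicate error, and no p-value is given. Whole lung mixes many cell types, and which cell type carried the binding cannot be told apart in these libraries.

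NKX2-1 is a homeodomain transcription factor that specifies lung epithelium, thyroid and ventral forebrain. In the lung it is present in airway cells and in both cell types of the alveolar epithelium, the thin alveolar type 1 (AT1) cells of the gas exchange surface and the surfactant-secreting alveolar type 2 (AT2) cells. Transcription factors can bind beside transcription starts, at promoters, or far from them, at enhancers within genes or between them. A region near a gene is a position here, and binding alone does not show that the gene responds.

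Sequence was at hand for windows from 250 bases before to 50 after transcription starts (RefSeq, GRCm38.p6, the coordinates of mm10). The stretches shown are the parts upstream of the start within about 60 bases of the mean summit, read 5′ to 3′ on the strand of the gene. Capitals mark the word CTCAAG or its reverse complement CTTGAG, the core of the motif known for NKX2-1, found by letter match alone. The first 4 belong to the strongest regions with the highest pileups among those whose summit fell in such a window of a protein-coding gene. They are Cxcl15 at chr5:90794329-90794449 (plus strand), Sdhaf1 at chr7:30322486-30322606 (minus), Haspin at chr11:73138477-73138544 (minus) and Foxn3 at chr12:99450216-99450324 (minus).
Cxcl15: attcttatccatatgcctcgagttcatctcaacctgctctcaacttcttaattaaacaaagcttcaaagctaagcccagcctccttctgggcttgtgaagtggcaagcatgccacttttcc
Sdhaf1: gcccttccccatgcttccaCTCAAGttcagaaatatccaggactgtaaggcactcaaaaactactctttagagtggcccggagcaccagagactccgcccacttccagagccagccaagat
Haspin: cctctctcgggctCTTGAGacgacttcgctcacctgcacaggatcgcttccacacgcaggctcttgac
Foxn3: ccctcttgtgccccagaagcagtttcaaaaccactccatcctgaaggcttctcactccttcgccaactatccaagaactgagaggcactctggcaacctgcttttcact
The word stood in the stretches of Sdhaf1 and Haspin and was not in those of Cxcl15 and Foxn3. A further 4, chosen after their values were seen, show the word close to the summit. They are Hook2 at chr8:84990373-84990480 (plus), Bcs1l at chr1:74588076-74588196 (plus), Dcaf6 at chr1:165460580-165460700 (minus) and Scgb1c1 at chr7:140845367-140845487 (plus).
Hook2: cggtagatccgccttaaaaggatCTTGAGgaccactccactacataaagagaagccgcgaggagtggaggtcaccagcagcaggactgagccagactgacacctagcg
Bcs1l: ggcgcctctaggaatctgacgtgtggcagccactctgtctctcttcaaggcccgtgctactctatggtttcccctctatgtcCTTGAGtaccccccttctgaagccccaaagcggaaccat
Dcaf6: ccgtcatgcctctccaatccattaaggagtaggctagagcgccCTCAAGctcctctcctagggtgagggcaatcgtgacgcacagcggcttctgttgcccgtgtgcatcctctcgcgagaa
Scgb1c1: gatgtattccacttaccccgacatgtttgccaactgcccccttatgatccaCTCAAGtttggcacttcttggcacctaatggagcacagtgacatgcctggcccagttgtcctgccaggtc
From word to summit the distance was 21.5 bases at Hook2, 24.5 at Bcs1l, 14.5 at Dcaf6 and 6.5 at Scgb1c1. The last pair, also chosen after their values were seen, are genes of distal lung epithelium whose stretch lacks the word, Sfta2 at chr17:35649644-35649707 (plus) and Lamp3 at chr16:19706383-19706503 (minus).
Sfta2: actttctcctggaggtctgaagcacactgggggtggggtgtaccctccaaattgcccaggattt
Lamp3: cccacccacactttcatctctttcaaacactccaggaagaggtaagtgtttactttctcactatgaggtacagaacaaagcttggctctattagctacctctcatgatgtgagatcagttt

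The name strongest regions held for most of the set but not for all of it. A fold enrichment, the authors' ratio of pileup to local background, was recovered into that background for each region, and 56 of the 2397 (2.34%, 95% Clopper-Pearson interval 1.77 to 3.02, counting error only) had a local background over 5 times the genome-wide value with at least 1 antibody. Of the other four-antibody regions 29 of 29209 (0.0993%) did. Tags in these 56 places were abundant in the input as well, so a high pileup there came with a low enrichment, a median mean fold of 2.24 (range 1.47 to 5.20) against 21.5 in the remaining 2341. Because the background is recovered from pileup and fold, a low fold partly follows from how the 56 were picked. These 56 regions are called input-rich below. The input-rich regions took 8 of the 25 highest places by lowest pileup, and 8 of the 16 regions with a pileup of at least 200 with every antibody.

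The input-rich regions formed 3 groups and 23 single regions near 23 different genes. Of the 56, 24 lay at or beside Sfi1, a gene of a centrosome protein, between 3123773 and 3196805 on chromosome 11, with mean folds of 1.47 to 4.78. A group of 5 lay between 39842996 and 39848831 on chromosome 17, 103 to 107 kb from Esp38, a gene of an exocrine secreted peptide. The longest of these, at 2544 bp also the longest of all 2397, overlapped the annotated pseudogene Rn18s-rs5 of 18S ribosomal RNA and the long noncoding RNA AY036118. Its pileups were 261 with Abcam133737, 276 with Abcam76013, 252 with Millipore07-601 and 241 with Abcam133638. The 4 antibodies stood close together there, at folds of 2.96 to 3.75. Another 4 lay near Scaf8, named after its values were seen, with mean folds of 2.40 to 4.52. Single input-rich regions among the 25 highest lay 61.1 kb from Axin2 and 282 kb from Pex2.

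**Figure D1:**
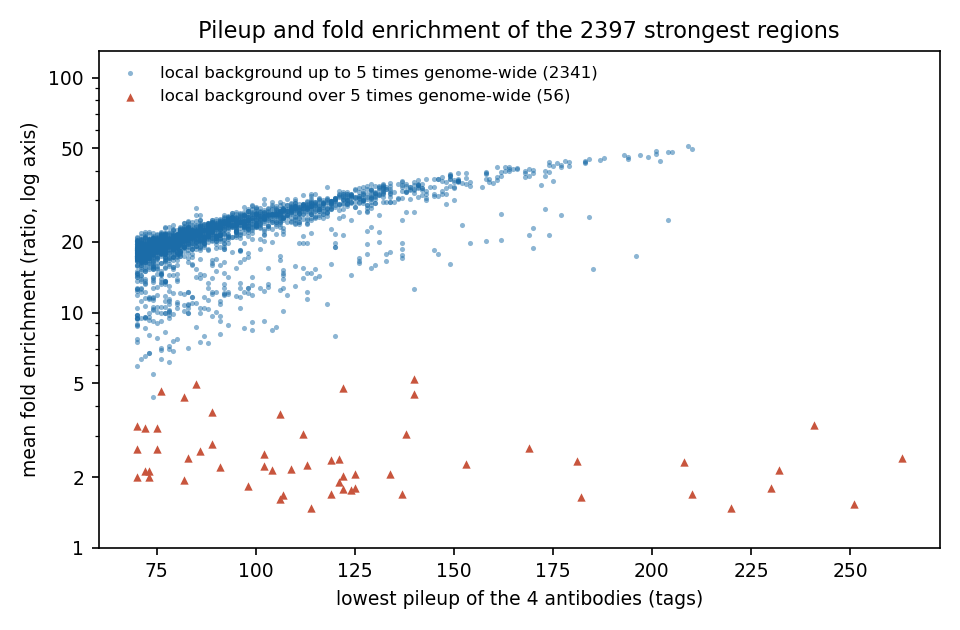
Each point is 1 of the 2397 strongest regions. The horizontal axis gives the lowest of its 4 pileups in tags and the vertical axis, which is logarithmic, its mean fold enrichment over the 4 antibodies. The 56 triangles with a local background over 5 times the genome-wide value lie at folds of 1.47 to 5.20 over the whole range of pileups, and the 2341 circles reach a fold of 51.0.

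In the remaining 2341 regions Millipore07-601 stood highest as a rule. Their median pileups were 91.0 with Abcam133737, 93.0 with Abcam76013, 134 with Millipore07-601 and 116 with Abcam133638. Millipore07-601 gave the highest pileup in 89.6% of them, and Abcam133737 the lowest, ties included, in 62.5%. With the pileups scaled to equal depth, the ratio of Millipore07-601 to Abcam133737 had a median of 1.56, close to the 1.48 of the other four-antibody regions. In the input-rich regions this ratio was 1.04, and the median pileups of 124, 122, 119 and 124 lay within 5 tags. Millipore07-601 was the lowest in 28 of the 56 (50.0%), and Abcam76013 was the highest in 22 (39.3%).

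**Figure D2:**
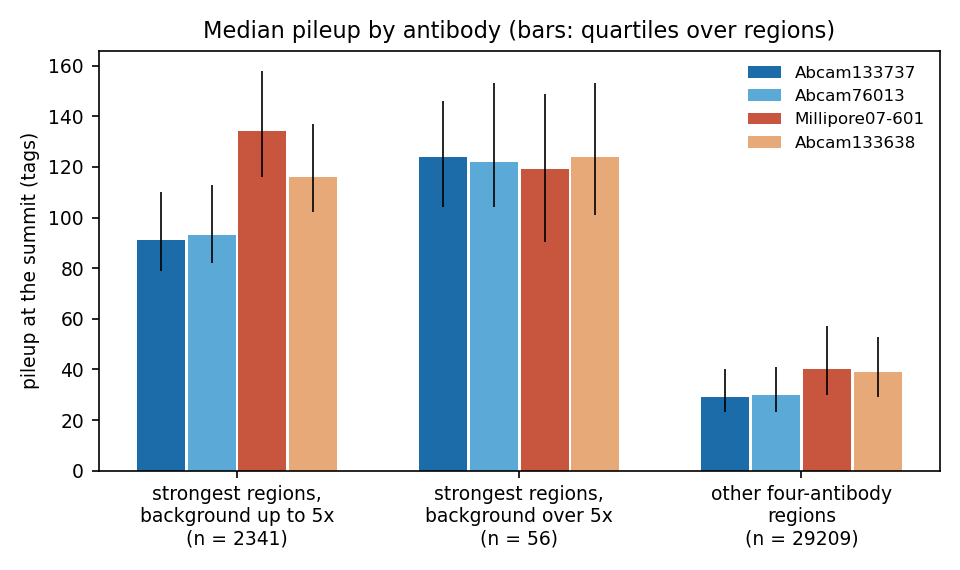
Bars give the median pileup in tags with each of the 4 antibodies, and black lines run from the lower to the upper quartile over regions, which is not an error over replicates. In the 2341 strongest regions with a background up to 5 times the genome-wide value the medians run from 91.0 to 134, in the 56 input-rich regions from 119 to 124, and in the 29209 other four-antibody regions from 29.0 to 40.0.

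The 2 lower antibodies set who passed. A pileup of at least 70 was reached in 2753 regions (3.99% of all merged regions) with Abcam133737, 2933 (4.26%) with Abcam76013, 5396 (7.83%) with Abcam133638 and 6567 (9.53%) with Millipore07-601. When the regions were chosen with 3 antibodies only, the antibody left out also reached 70 in 83.2% of 2880 regions (Abcam133737), 88.2% of 2718 (Abcam76013), 99.8% of 2401 (Abcam133638) and 99.9% of 2399 (Millipore07-601). The antibody left out lacked a peak in at most 2 of these regions. Its median pileup there ran from 86.0 to 133, against 29.0 to 40.0 in the other four-antibody regions. Those others were set apart by the lowest of all 4 pileups, the antibody left out included. The gap between the medians is therefore partly fixed by the rule.

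The threshold cut through a continuous range. Exactly 70 was the lowest pileup of 100 strongest regions, and 86 four-antibody regions stopped 1 tag short. Ordered by lowest and then by mean pileup, the 3 just inside lay in Mical3 (pileups 70, 71, 72 and 76, in the order Abcam133737, Abcam76013, Millipore07-601 and Abcam133638, which is kept from here on), Zdhhc3 (73, 71, 84 and 70) and Ankrd50 (71, 70, 83 and 79). The 3 just outside lay in Trim17 (85, 69, 124 and 129), Magi1 (69, 96, 128 and 111) and Sft2d1 (69, 85, 130 and 114). This order puts the lowest means next to the threshold on the inside and the highest on the outside. Over all 100 regions at 70 the mean fold had a median of 17.4 (range 2.00 to 21.0), and over all 86 at 69 of 17.5 (7.12 to 21.6). A lowest pileup of 70 to 79 was found in 769 regions, of at least 100 in 787 and of at least 150 in 105.

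Outside the input-rich places, the highest region lay inside Atf6, the gene of a sensor of stress in the endoplasmic reticulum, at chr1:170770486-170771157. Its pileups were 221, 210, 271 and 242, with a mean fold of 49.6. Slc26a9, the gene of a chloride transporter of airway and alveolar epithelium, held the next at chr1:131763872-131765115, with pileups of 223, 209, 284 and 255. The 284 tags were the highest count of all peaks with Millipore07-601, and the mean fold of 51.0 was the highest of the 2397. Both lay inside their gene, 66.4 and 6.65 kb from its nearer end. All 4 antibodies placed the summit within 12 bp of one another at Atf6 and within 27 bp at Slc26a9.

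Next came a region inside Tnrc6a, whose product acts in silencing by microRNAs, with pileups of 215, 205, 269 and 228. A region 3.04 kb from Rab28, the gene of a small GTPase, had 204, 214, 270 and 240, but its local background was 2.31 times the genome-wide value and its mean fold 24.7. Mycbp, coding for a MYC-binding protein, had its region 11.1 kb away with 204, 227, 255 and 232. The regions nearest to Kcnj15 (a potassium channel, at 22.5 kb) and Nrep (50.3 kb) followed, with lowest pileups of 202 and 201. The surfactant protein gene Sftpb had a region 27.4 kb from its end at 201, 213, 261 and 223. Of these first 8 outside the input-rich places, 3 lay inside a gene and the other 5 lay 3.04 to 50.3 kb from one.

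The rest of the 25 highest lay near Rplp1 (79.9 kb away, a ribosomal stalk protein) and Lrig2 (81.4 kb), 5.85 kb from Majin, and inside Dgkg (a diacylglycerol kinase), Dnajb4 (a cochaperone), Lca5l, Sh3bp5, Ltbp2 (a matrix protein related to the binders of latent TGF-beta) and Mindy4. Their lowest pileups ran from 185 at Majin to 199 at Rplp1. The local background of the Dnajb4 and Majin regions was 3.16 and 3.46 times the genome-wide value, and their mean folds of 17.4 and 15.4 stood under those of the others, which were 44.8 to 47.0. Leaving out the input-rich regions was a step chosen after the values were seen. The 25 highest then also took in regions inside Col4a4, Rxra (the retinoid X receptor alpha), Nrp1, Tmem245 and Pdcd4. Others that entered lay outside genes, nearest to Cttnbp2 (152 kb away), Ptprc (497 kb) and Cbr2 (12.5 kb, a carbonyl reductase abundant in mouse lung). The Cttnbp2 region had a local background of 2.31 times the genome-wide value and a mean fold of 25.6. The lowest pileups of all these added regions ran from 178 to 184.

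Summits of the strongest regions were tight and their intervals long. The 4 summits of a region lay a median of 24.0 bp apart, and in 90.3% of the regions within 50 bp. In the other four-antibody regions the median was 48.0 bp, and 53.0% had them within 50 bp. The median length was 591 bp against 396 bp. Length and summit position come from the same tags as the pileup, so these values describe the choice. The ratio between the highest and the lowest antibody, at equal depth, was widest at Apoa2 (96, 86, 182 and 129 tags, a ratio of 2.29), Tacc2 (2.28) and Prag1 (2.25). In each of these 3 Millipore07-601 was the highest. The longest outside the input-rich places lay in Arhgap31 (1894 bp), and, named after their values were seen, Fbln5 (1868 bp) and Chsy1 (1773 bp).

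The strongest regions lay away from gene ends more often than the other four-antibody regions did. Positions were taken from the mean summit to 21883 protein-coding genes of RefSeq, whose table gives both ends of a gene without strand, so an end is either a start or a termination. Of the 2397, 235 lay within 1 kb of a gene end (9.80%, 8.64 to 11.1), against 23.5% (23.0 to 24.0) of the others. Inside a gene and farther than 1 kb from its ends lay 1299 (54.2%, 52.2 to 56.2), against 46.6% (46.0 to 47.1). Outside genes lay 863 (36.0%, 34.1 to 38.0), against 29.9% (29.4 to 30.5). None of the 3 pairs of intervals overlap, but they cover counting error only, and regions are not replicates. The shares without the 56 input-rich regions were 9.87%, 54.3% and 35.8%.

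Position changed with pileup over the whole range of four-antibody regions. Among the 5579 regions with a lowest pileup of 12 to 19, 26.9% lay at a gene end, and among the 237 of 130 or more, 5.91% did (3.27 to 9.71). The share was 24.2% to 26.9% in the 4 bins up to 39 and fell in each later bin. Outside genes the share was 28.3% in the first bin and 42.2% (35.8 to 48.8) in the last. On either side of the threshold of 70, the share at gene ends was 13.3% (60 to 69) and 12.0% (70 to 84), and the share outside genes 33.8% and 33.2%. Where strand was given, 145 of 230 strongest regions at a gene end lay near a start (63.0%, 56.5 to 69.3), against 74.5% (73.5 to 75.6) of the others. A start lay within 1 kb for 7.38% of the strongest regions and 20.2% of the others.

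**Figure D3:**
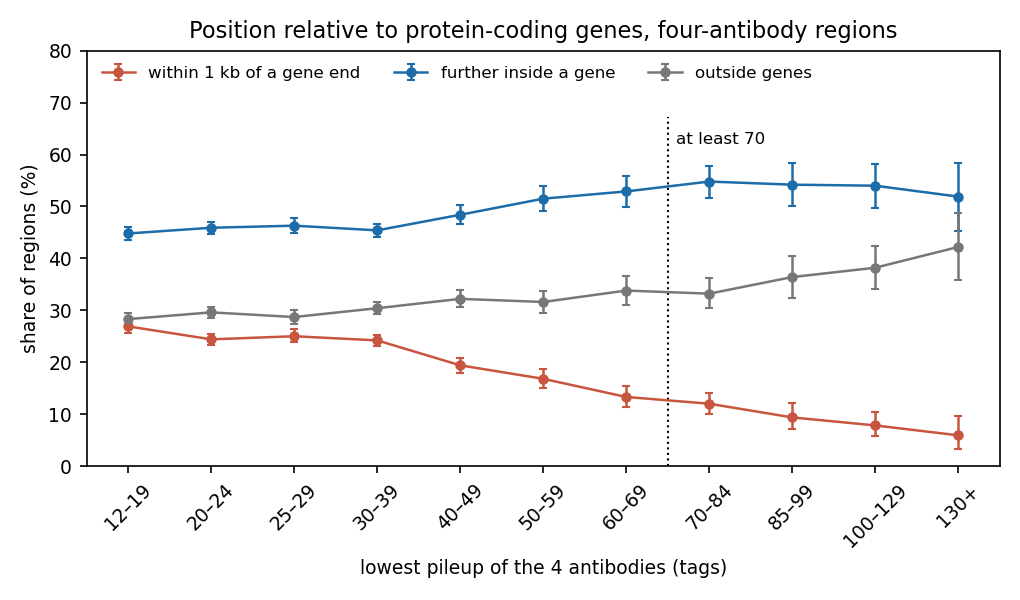
Points give the share, in percent, of four-antibody regions in each bin of lowest pileup that lay within 1 kb of a gene end, farther inside a gene, or outside genes, with 95% Clopper-Pearson intervals for counting error. The dotted line marks the threshold of 70. The share at gene ends is 26.9% in the first bin and 5.91% in the last.

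The median distance to the nearest gene end was 17.9 kb, against 10.1 kb in the other four-antibody regions, and 25.6% lay more than 50 kb away, against 20.1%. The 3 most distant lay on chromosome 8 at 1410 kb from Efnb2 (lowest and highest pileup 97 and 140), on chromosome 2 at 1348 kb from Zeb2 (102 and 133) and on chromosome 8 at 1346 kb from Got2 (88 and 137). All 3 had backgrounds of 1.00 to 1.15 times the genome-wide value and mean folds of 21.2 to 24.5, like strongest regions elsewhere. On the autosomes 6.46% to 9.48% of a chromosome's four-antibody regions belonged to the strongest. Chromosome X held 9 of 374 (2.41%), and 1 of these 9, in Apool, was input-rich. The 8 others, all named after their values were seen, lay in or near Msn, Cask, Rab33a, Gabrq, Cenpi, Frmd7, Pls3 and Zxdb. The highest was that in Msn, the gene of the membrane-cytoskeleton linker moesin, at 110, 116, 155 and 146. The labels do not give the sex of the mice.

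Most of the strongest regions stood alone. Of the 2397, 480 (20.0%, 18.4 to 21.7) had another within 20 kb, and 4085 of the 29209 other four-antibody regions (14%, 13.6 to 14.4) had a strongest region within that distance. Without the input-rich regions the share was 19.1%. Linked at steps of at most 20 kb, they gave 1917 single regions, 184 pairs, 21 groups of 3, 5 of 4, 1 of 5 and 1 of 24. The groups of 5 and 24 and 1 of the groups of 4 were those beside Esp38, Sfi1 and Scaf8 described above.

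The other 4 groups of 4, named after their values were seen, lay near Kcnj15, Fam189a2, Pitpnm2 and Atp11a. At 15.8 to 36.3 kb from Kcnj15, the 4 regions spanned 20.9 kb with lowest pileups of 73, 113, 202 and 76, so that 1 region stood far above its neighbours. Near Fam189a2, 8.16 to 19.3 kb away, the span was 11.7 kb and the lowest pileups were 117, 99, 124 and 99. Inside Pitpnm2, the gene of a phosphatidylinositol transfer protein, 4 regions lay within 7.48 kb at 95, 106, 117 and 109. Those inside Atp11a, the gene of a phospholipid flippase, lay within 31.4 kb at 97, 121, 95 and 84. Heights within these 3 groups lay closer together than those near Kcnj15. Groups of 3 are named here by containing or nearest gene and were chosen after their values were seen. Among the 21 were those of Lpcat1 (lowest pileups 79 to 129), whose product makes the phosphatidylcholine of surfactant, and of Sftpc and Lgi3 (86 to 130). Slc34a2, the phosphate transporter of AT2 cells, was the gene nearest to another (82 to 98), but lay more than 10 kb away. These 3 groups do not stand for the 21, which also included those of Bcl6 (78 to 173), Rasl11b (139 to 145) and Tns1 (75 to 162).

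**Figure D4:**
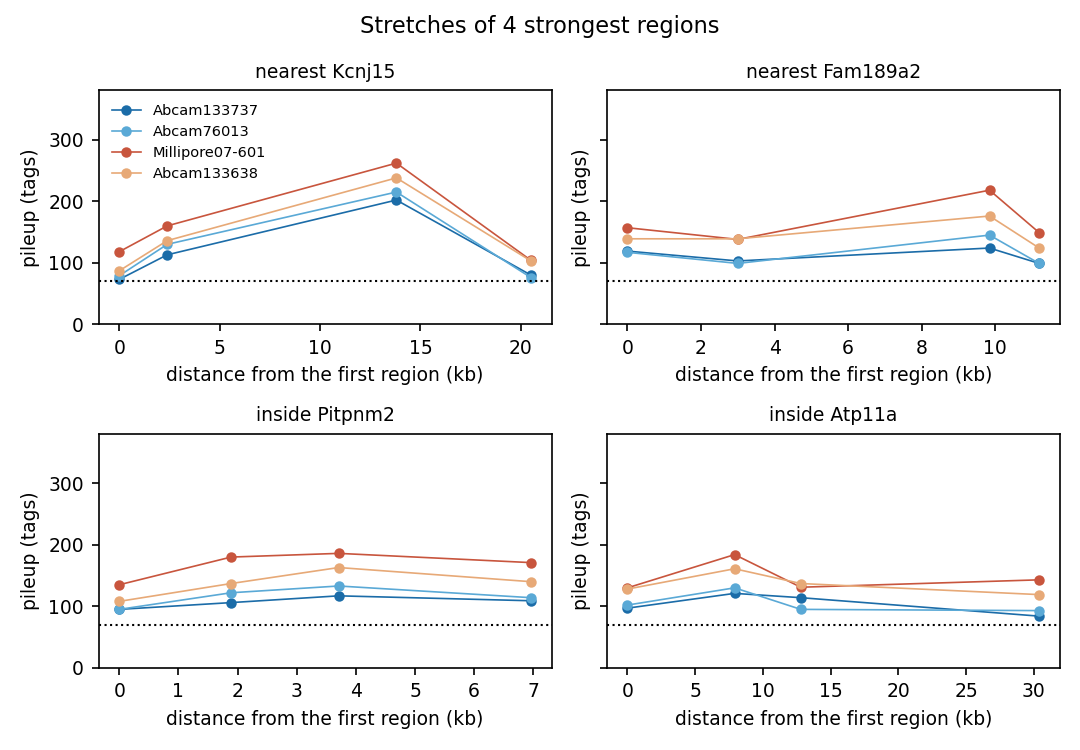
Each panel is a group of 4 strongest regions outside the input-rich places. The horizontal axis gives the distance in kb from the first region and the vertical axis the pileup in tags with each of the 4 antibodies, with the threshold of 70 dotted; lines join regions for the eye. Near Kcnj15 the third region reaches 202 to 262 tags and the others 73 to 160.

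Strongest regions lay inside or within 10 kb of 1831 of the 21883 protein-coding genes (8.37%), while any four-antibody region did so for 12671 (57.9%). A single strongest region was found at 1527 of the 1831 genes, 2 at 243 and 3 or more at 61, and 623 regions had no gene within 10 kb. Long genes were met more often. The genes with a strongest region spanned a median of 45.9 kb against 17.2 kb for all genes, and the share with one was 2.69% in the shortest quintile of genes and 18.2% in the longest. The part of gene length in the list counts below was not tested, and the median span of the leading lists is given beside them. Apart from Sfi1 with its 24 input-rich regions, the genes with the most were Adamtsl1 (6 regions over 915 kb) and Mecom (6 over 558 kb), then Rad51b and Sh3rf3 with 5 each. Mecom, coding for the zinc finger factor EVI1, had lowest pileups of 81 to 153, and Adamtsl1, coding for a matrix protein, of 84 to 129.

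The gene lists that follow were drawn up with earlier results of these data known, so their shares describe and do not test. Markers of AT2 cells had the highest share, with 18 of 34 genes (52.9%, 35.1 to 70.2) at 23 strongest regions and a median span of 16.8 kb. Slc26a9 led, followed by Cxcl15, a chemokine of mouse lung epithelium (166, 188, 225 and 206), and Etv5, an ETS factor that maintains AT2 cells (138, 139, 190 and 151). Among the surfactant protein genes, which like Abca3 are named after their values were seen, within 10 kb, Sftpc had its region 6.01 kb away, inside Lgi3, at 130, 154, 202 and 173, Sftpb one at 0.268 kb at 119, 109, 150 and 135, Sftpd at 3.48 kb at 103, 83, 146 and 106, and Sftpa1 at 0.150 kb at 73, 77, 95 and 94. With each antibody the Sftpc region was thus the highest of these 4, and that of Sftpa1 the lowest. Beyond 10 kb, the Sftpb region at 27.4 kb was higher than all 4, at 201, 213, 261 and 223. Abca3, the lipid pump of lamellar bodies, reached 88, 81, 124 and 95.

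Markers of AT1 cells had 17 of 33 genes (51.5%, 33.5 to 69.2) at 20 strongest regions, with a median span of 28.1 kb. Col4a3 and Col4a4, which code for chains of the type IV collagen of the alveolar basement membrane, share 1 region inside Col4a4 at 184, 201, 250 and 225. Lmo7, an actin-linked protein of cell junctions, followed at 170, 160, 216 and 191. Other AT1 genes, named after their values were seen, were Icam1 (158, 178, 215 and 190), Clic5 (142, 141, 213 and 167), Aqp5, the water channel (86, 93, 145 and 131), and Ager, the receptor RAGE (71, 92, 107 and 96). Some four-antibody region lay at 93.9% of the AT1 genes and 97.1% of the AT2 genes, against the 57.9% of all genes.

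Of 50 transcription factors of lung epithelium, 15 (30.0%, 17.9 to 44.6) had a strongest region, at a median span of 32.1 kb for the list. Mecom led (153, 157, 200 and 169), followed by Etv5 and the forkhead factor Foxp1 (112, 139, 184 and 165). Nkx2-1 itself, named as the factor's own gene, had 1, inside the gene, with a lowest pileup of 98 (Abcam76013), a highest of 124 (Abcam133638) and a mean fold of 23.5, above the median of all strongest regions with 3 antibodies and under the median with Millipore07-601 (133). At 49 of the 50 genes there was some four-antibody region.

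Among genes of adhesion and matrix, cell-matrix adhesion had 11 of 37 (29.7%, 15.9 to 47.0) at a median span of 71.5 kb. It was led by Tns1 (162, 185, 217 and 200), a tensin of focal adhesions, Itgb4 (157, 149, 205 and 189), the integrin of hemidesmosomes, and Sdc4 (131, 133, 187 and 154). Junctions and polarity had 11 of 46 (23.9%, 12.6 to 38.8) at a median span of 27.4 kb. Leading there were Prkci, the atypical protein kinase C of the polarity complex (120, 120, 169 and 157), Cldn18 (5.34 kb away) and Tjp1. Basement membrane and matrix had 10 of 42 (23.8%, 12.1 to 39.5) at a median span of 77.5 kb. There Nid2 (185, 172, 249 and 192), a nidogen that links laminin to collagen, came after the collagen pair. Genes of YAP, TAZ and TEAD signalling had 9 of 34 (26.5%, 12.9 to 44.4) at a median span of 73.2 kb. They were led by Tead3 (137, 154, 203 and 188), Taok3 and Wwc1, but the Tead3 region lay 5.25 kb away, inside Tulp1. Each of these intervals holds the 18.2% found in the longest quintile of genes, which begins at 57.1 kb. The median span of junctions and polarity, however, falls in the quintile of 24.6 to 57.1 kb. The share there was 9.30%, under the interval of that list.

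Ion and water transport had 16 of 41 (39.0%, 24.2 to 55.5) at a median span of 42.7 kb. Slc26a9 was first, and Piezo1, a mechanosensitive channel (155, 150, 204 and 183), was also among the leading genes. Surfactant and lipid metabolism had 11 of 46 (23.9%, 12.6 to 38.8) at a median span of 42.5 kb. It was led by Scd2, a fatty acid desaturase (180, 176, 254 and 216, at 7.42 kb), Npc1 and Srebf1. The Srebf1 region lay 8.87 kb away, inside Rai1. The secretory pathway and the unfolded protein response had 11 of 45 (24.4%, 12.9 to 39.5) at a median span of 24.8 kb. In front were Atf6, Creb3l2 (131, 126, 197 and 151) and Vamp8 (124, 126, 177 and 130, at 6.29 kb). Among signalling genes, receptor kinases had 12 of 50 (24.0%, 13.1 to 38.2) at a median span of 31.4 kb. They were led by Errfi1, an inhibitor of the EGF receptor (134, 148, 200 and 168), Egfr itself (125, 153, 184 and 167) and Igf1r (114, 130, 164 and 136).

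Signalling lists nearer to the share of all genes had intervals that reached it or came close. Notch signalling had 6 of 27 (22.2%, 8.62 to 42.3), led by Maml3, Notch2 and Hes1 (8.22 kb away). Glucocorticoid response had 4 of 23 (17.4%, 4.95 to 38.8), with Errfi1, Klf9 and Tfcp2l1. Wnt signalling had 7 of 42 (16.7%, 6.97 to 31.4), where Rspo2 (174, 201, 248 and 198), which amplifies Wnt signals, stood above Tcf7l1 and Wnt7a. TGF-beta and BMP signalling had 6 of 39 (15.4%, 5.86 to 30.5), led by Ltbp2 (193, 198, 267 and 231), Smad3 and Smurf2.

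Markers of other cells of the lung differed among themselves. Airway secretory cells had 4 of 20 (20.0%, 5.73 to 43.7). They were led by Aldh1a7 (83, 90, 162 and 106), Scgb1a1, the secretoglobin of club cells (76, 87, 105 and 105, at 2.11 kb), and Lypd2. The Lypd2 region lay 2.79 kb away and closer to Slurp1. Multiciliated cells had 2 of 20 (10.0%, 1.23 to 31.7), Tppp3 (141, 141, 196 and 168) and Dynlrb2 (118, 100, 162 and 149). The region of Tppp3 lay 5.93 kb away, inside Lrrc36. Lung endothelium had 2 of 26 (7.69%, 0.946 to 25.1), Flt1 at 9.24 kb and Esam at 1.18 kb from a region. These regions, with lowest pileups of 77 and 75, lay closer to Pan3 and Msantd2. Immune cells had 4 of 26 (15.4%), of which the leading Cd79a shares its region with the closer Rps19, and Fcer1g and Ly6c2 hold theirs inside the gene. Lung mesenchyme had 0 of 26, which allows a share of up to 13.2%, gastrointestinal epithelium 0 of 25 (up to 13.7%) and thyroid 0 of 14 (up to 23.2%). Housekeeping genes, with a median span of 7.88 kb, had 0 of 25 (up to 13.7%) although 22 of the 25 had a four-antibody region. All these upper limits lie above the 8.37% of all genes, so a count of 0 here does not show a lower share.

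**Figure D5:**
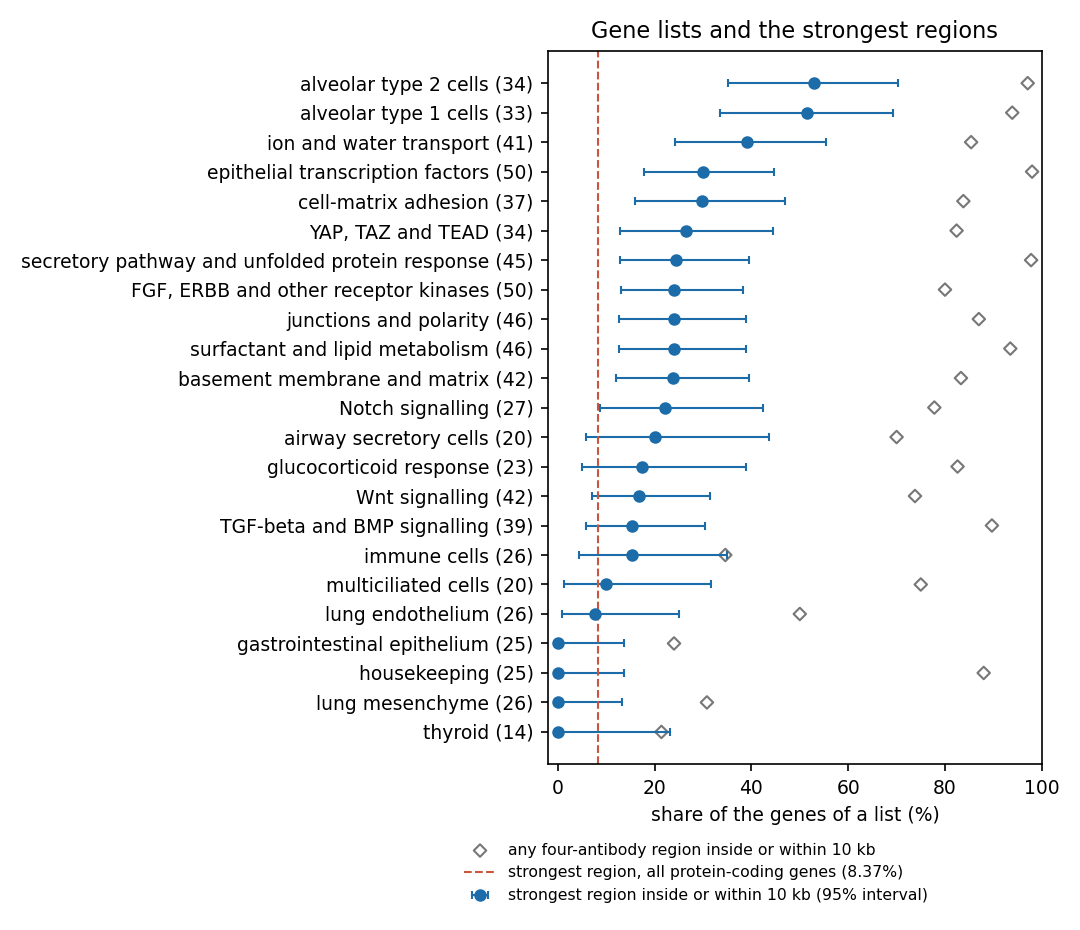
Circles give the share, in percent, of the genes of each list (number of genes in brackets) that have a strongest region inside or within 10 kb, with 95% Clopper-Pearson intervals for counting error. Diamonds give the share with any four-antibody region, and the dashed line marks the 8.37% of all protein-coding genes with a strongest region. AT2 and AT1 markers stand highest at 52.9% and 51.5%, and 4 lists stand at 0.

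Families were also taken by the start of the gene symbol. Like the lists, they were chosen with earlier results of these data known. Solute carriers had 33 of 375 (8.80%, 6.13 to 12.1) and genes named Tmem 20 of 238 (8.40%). Genes with symbols in Ptpr had 7 of 21 (33.3%, 14.6 to 57.0) at a median span of 151 kb, led by the receptor phosphatase gene Ptprf (159, 150, 192 and 185). The 7 include Ptprcap, which codes for a protein associated with CD45 and not for a phosphatase. Integrins had 6 of 31 (19.4%), claudins 4 of 35, collagens 6 of 44, and laminins 0 of 11 (up to 28.5%). Zinc finger genes named Zfp had 22 of 397 (5.54%, 3.51 to 8.27), and ribosomal protein genes 3 of 83 (3.61%, 0.752 to 10.2) although 83.1% of the latter had a four-antibody region. Olfactory receptors had 1 of 1110, vomeronasal receptors 0 of 353 (up to 1.04%) and Hox genes 0 of 39 (up to 9.03%).

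Few of the strongest regions lay at a start. The highest within 500 bp of one, or with the summit in a promoter window, was that of Cxcl15, 145 bases before the start. Sdhaf1, coding for an assembly factor of succinate dehydrogenase, had 150, 149, 218 and 167. Haspin, a mitotic kinase gene that lies within Itgae, had 137, 140, 170 and 147 at a background of 2.31 times the genome-wide value. Errfi1 came next, then an alternative start inside Foxn3, a forkhead repressor gene (131, 141, 180 and 162), and Pgs1, which acts in the synthesis of phosphatidylglycerol (128, 133, 168 and 151). With each antibody the region of Cxcl15 was the highest of the 6.

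The summits of 113 strongest regions fell in 127 promoter windows, and those of 4202 other four-antibody regions in 4986. Windows of genes on chromosome 18 were not used here. The word CTCAAG or its reverse complement stood in 44 of the 127 windows (34.6%, 26.4 to 43.6), in 17.9% (16.8 to 19.0) of the 4986 and in 15.9% of all 32851 windows. Within 50 bases of the summit it stood in 22.8% and 9.89%. Windows of a divergent pair overlap, as at Bcs1l and Zfp142, so these counts are not independent. A second NKX2 word, CACTTG, stood in 15.0% of the windows of the strongest regions, 12.0% of the others and 13.6% of all, and the shorter AAGTG, which lies in its reverse complement, in 58.3%, 45.9% and 46.4%.

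Words of other factors were counted in the same windows on both strands. The AP-1 word TGAGTCA stood in 8.66% (4.40 to 15.0), 3.27% and 5.20%, in none of them within 50 bases of a summit of a strongest region. The forkhead word TGTTTAC stood in 3.94%, 2.55% and 3.65%, the TEAD word GGAATG in 15.7%, 12.0% and 14.7%, and the GATA word AGATAA in 6.30%, 4.55% and 11.2%. The C/EBP word TTGCGCAA was in 0 of 127 windows, which allows a share of up to 2.86%, and in 0.183% of all. The ETS word CCGGAA and the GC box GGGCGG are common at starts of broadly used genes. CCGGAA stood in 29.9% of the windows of the strongest regions, 35.6% of the others and 14.9% of all, and GGGCGG in 51.2% (42.2 to 60.1), 67.9% (66.6 to 69.2) and 35.7%. A match is a run of letters, not a bound site, and no match says only that these letters were not in the window.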

How the data were processed

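NKX2-1 ChIP-seq with 4 antibodies, 1 library each, and 1 input was made from whole mouse lung at postnatal day 10. The authors, per the file headers, called peaks per antibody against the input with MACS 2.1.2 (q cutoff 0.05, effective genome size 1.87 Gb, 1 tag kept per position, smaller library scaled up). The tools named, per the submitters' processing notes, are Bowtie, SAMtools and MACS2, beside FastQC, Trimmomatic and deepTools, with build mm10; other versions are not given in the sources used here. Per the file headers, each deposited peak has a pileup signal in tags, a fold (a ratio over local background), and −log10 values of p and q. These are the authors' values and describe or rank peaks only. With 1 tag per position and strand, the pileup cannot exceed 304 to 324 tags; the highest of each list reached 86.1% to 88.5% of that, so pileups near that limit have little room to differ. The input was scaled up 4.04 to 4.37 times, so its local counts are coarse.

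Peaks were merged with Python 3.11.15, pandas 2.3.3 and NumPy 2.4.6, checked on simulated intervals, and intervals come from SciPy 1.17.1. Local background is the pileup with 1 tag added, divided by fold, with 1 tag then subtracted. The gene table has no strand, exons or introns, so the nearer gene end was used where the design had named transcription starts, and with no genome the motif count was limited to promoter windows. Members and gene lists were chosen with earlier results of these data known. Named genes follow a rule: the 25 highest regions by lowest pileup, 3 on each side of the threshold, up to 3 genes per list, the 5 genes with most regions, the 6 highest near a start, the extremes in ratio, length, background and distance, and the largest group; every other gene in the text was chosen after its values were seen. Some genes and lists are not reported here. Alternatives were other thresholds, depth scaling, a ranking by fold, summit agreement, background, q-value, each antibody left out, and other distances. The set without input-rich regions was added after seeing the data.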

Additional observations from a re-analysis of the deposited data

How the results depend on the processing

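Of 113 values recomputed under alternatives, 88 stayed within 1.5 times (counts) or inside the 95% interval (shares), and 25 did not; the cause was not tested beyond what each alternative changes by construction. A pileup of at least 50 gave 5360 regions and 3635 genes, with 12.9% at gene ends, 34.0% outside genes and 33.5% within 20 kb of another. A pileup of at least 100 gave 787 regions and 620 genes, with shares of 7.24%, 39.4% and 11.2%, and 11 AT1 and 11 AT2 genes. Keeping regions at the genome-wide background with every antibody left 1284 regions, 1093 genes and 11 AT1 genes, with 11% within 20 kb of another. That spacing share was 18.1% with a −log10 q of at least 50, 13.6% with steps of 10 kb, 34.9% with steps of 50 kb, and 20.1% to 24.1% with 1 antibody left out, 24.1% without Abcam133737 and 22.1% without Abcam76013. Gene ends within 0.5 or 2 kb held 6.38% and 14.8%, and in the latter case 51.1% lay inside genes. A distance of 50 kb gave 3681 genes. Ranking by lowest fold kept 2047 of the 2397 regions (85.4%). Leaving out the input-rich regions, chosen after seeing the data, changed none of these calls. No paired analysis was possible because each antibody has 1 library. With 1 library each and possibly 1 chromatin preparation, spread between animals is unknown, and intervals cover counting error only.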

Other observations

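Words noticed in the printed stretches, and counted after those were read, stood in more of the windows of the strongest regions as well, so the counts partly restate what was seen. CACTC or its reverse complement GAGTG stood in 109 of 127 windows of the strongest regions (85.8%), in 57.7% of those of the other four-antibody regions and in 47.4% of all windows. ACTCAA, which shares letters with both CACTC and CTCAAG, stood in 36.2%, 10.6% and 11.3%. CACTCAA, which contains CACTC and ACTCAA, stood in 29 of 127 (22.8%), 4.37% and 3.35%.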
